A study of Mus musculus with 10 samples.

Results

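Genes of cell-cycle control that are known or proposed targets of the miR-290 family were followed in ribosome footprints of mouse embryonic stem cells with and without the microRNA machinery. The list named 10 genes by symbol, namely Rbl2, Rb1, Rbl1, Cdkn1a, Lats2, Casp2, Arid4a, Arid4b, Zfp148 and Ei24. Of these, 9 had a row in the deposited count table of 11011 genes, all 9 passed the filter on low counts that left 10978 genes for testing, and Lats2 was not analysed here. The rule picked rows by symbol and used no measured value, though the list was drawn up with earlier results of these data known.

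In ribosome profiling the RNA pieces left under each ribosome after RNase treatment are sequenced, so a gene's footprint count reflects both how much of its mRNA there is and how heavily it is translated, and these cannot be told apart here. The 10 libraries came from E14, an embryonic stem cell line of 129/Ola background derived from the blastocyst and kept in serum with the cytokine LIF, and every group was treated with cycloheximide before harvest. There were 5 groups of 2 libraries: Wild Type (WT), Dgcr8 knockout, Drosha knockout, Dicer knockout, and Ago1&Ago2 double knockout. The labels name no clone and do not say whether the libraries of a group came from separate cultures, so a p-value here reflects the spread among these libraries alone, and that spread may be technical.

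Drosha and its partner Dgcr8 cut microRNA hairpins out of longer transcripts in the nucleus, Dicer cuts the hairpins into mature microRNAs in the cytoplasm, and Argonaute proteins carry the mature microRNA to its targets. The miR-290 cluster supplies much of the microRNA of mouse embryonic stem cells and is known for keeping their G1 phase short by holding down inhibitors of the step from G1 to S phase. The pocket proteins, encoded by Rb1, Rbl1 and Rbl2, bind E2F factors and restrain S phase genes, and Cdkn1a encodes the inhibitor p21 that blocks cyclin-dependent kinases. Casp2 and Ei24 are linked to cell death, Arid4a and Arid4b encode partners of the pocket proteins in the Sin3 histone deacetylase complex, and Zfp148 encodes a zinc finger transcription factor.

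Total counts ran from 1754710 to 80850950 per library, and the log2 levels of the libraries of a group correlated at 0.896 to 0.977 across genes. The targeted genes checked the labels. By edgeR's test, described below, footprints of Drosha, Dicer1 and Ago2 fell in their own knockouts, by 2.59, 2.73 and 2.94 on the log2 scale (adjusted p = 0.00673, 0.00261 and 0.00589), while Ago1 was at 10.7 and 27 CPM (a gene's count scaled to the size of its library) in the libraries labelled double knockout, a mean of 18.9 against 14.5 in WT (adjusted p = 0.667). A fall of Ago1 below WT was therefore not seen, and those libraries are called the Ago1&Ago2 libraries below, after their label. Ago1 rose in the Drosha and Dicer knockouts, to means of 66.8 and 72.5 CPM (adjusted p = 0.0216 and 0.00616). It was at 31.6 CPM in the libraries labelled Dgcr8 knockout (adjusted p = 0.391), so its mean in Ago1&Ago2 was the lowest among the groups labelled knockout. Dgcr8 footprints did not fall in the 2 libraries that carry the label Dgcr8 knockout. They rose to a mean of 145 CPM, from 32.9 in WT (adjusted p = 0.0153), and these libraries are called the Dgcr8-labelled libraries below. Dgcr8 footprints also rose in Drosha (mean 183 CPM, adjusted p = 0.00277), Dicer (70.3, adjusted p = 0.0209) and Ago1&Ago2 (69, adjusted p = 0.0471). The labels do not give the mutation, so footprints alone could not check the Dgcr8 label. All 10 embryonic stem cell markers looked for, Pou5f1 and Nanog among them, were in the table, and their summed level lay between 4550 and 5940 CPM in every library. Of the 10, 1 was called by edgeR against WT. This was Klf4, lower in Drosha, Dicer and Ago1&Ago2 (adjusted p = 0.0346, 0.00176 and 0.0275), while 0 were called in the Dgcr8-labelled libraries. Of the 12 primitive endoderm markers 10 were in the table, and their sum was 9870 and 11100 CPM in WT against 843 to 5830 CPM in the 8 libraries labelled knockout, with the defining markers Gata6 or Sox17 at 0 counts in 4 of these. Of these 10 markers, edgeR called 6, 9 and 9 lower in Drosha, Dicer and Ago1&Ago2, and 0 in the Dgcr8-labelled libraries. The shares of all genes called are given with the comparisons below. Of the 10 trophectoderm markers 5 were in the table, with Cdx2, Eomes, Gata3, Elf5 and Hand1 not among them. Their sum was 150 and 182 CPM in WT, 157 and 228 in the Dgcr8-labelled libraries and 184 and 205 in Ago1&Ago2. It was 377 and 375 CPM in Drosha and 857 and 618 CPM in the Dicer knockout. Of these 5 markers, edgeR called 2 higher in Drosha, 4 higher in Dicer and 0 in the other groups. For fibroblast markers, 4 of 8 in the table, the sums were 248 and 220 CPM in WT and 41.4 to 173 CPM in the knockouts, and for neural markers, 3 of 6, the range over all libraries was 64.1 to 139 CPM. In Dicer edgeR called 3 of these 4 fibroblast markers lower and 1 of these 3 neural markers higher, and it called 0 of either in the other groups. None of the 6 mesoderm markers was in the table. These marker levels moved with the groups compared below, and their part in the results was not tested; in bulk samples fewer cells of a type and less RNA per cell cannot be told apart.

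The mature microRNAs of the family are shown first because their seeds (bases 2 to 8, in capitals) define the sites searched in the 9 genes. The sequences are those of RefSeq, with positions on GRCm38.p6; miR-292a-3p and miR-302a-3p are named only. Those of the miR-290 cluster lie on the plus strand of chromosome 7, between miR-290a-3p at chr7:3218674-3218697 and miR-295-3p at chr7:3220815-3220837.
miR-291a-3p: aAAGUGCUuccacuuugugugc
miR-294-3p: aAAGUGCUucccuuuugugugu
miR-295-3p: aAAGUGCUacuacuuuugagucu
miR-302b-3p: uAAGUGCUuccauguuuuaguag
miR-302d-3p: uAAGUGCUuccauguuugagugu
miR-290a-3p: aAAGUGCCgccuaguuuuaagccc
miR-291b-3p: aAAGUGCAuccauuuuguuugu
miR-293-3p: aGUGCCGCagaguuuguagugu
The first 5 share the seed AAGUGCU, which miR-302b-3p and miR-302d-3p of chromosome 3 have in common with the cluster, while miR-302c-3p has the seed AGUGCUU. The seeds of miR-290a-3p (AAGUGCC) and miR-291b-3p (AAGUGCA) share its first 6 bases, whereas miR-293-3p has the seed GUGCCGC, which was not searched for.

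Sites for the seed AAGUGCU were searched on the sense strand of the longest annotated 3' UTR of each gene (GENCODE M21, GRCm38) as AGCACTTA (8mer), AGCACTT (7mer-m8) and GCACTTA (7mer-A1), all of which contain the core GCACTT (6mer) and are counted once, under the longest match. An 8mer or 7mer site was found in 8 of the 9 genes, where 21.1% of 10928 genes with a UTR model had one, as did 23.0% of the 3300 genes with a UTR within 1.5 times the median length of these 9, which was 1613 bases. An 8mer was found in 3 of the 9, Rbl2, Cdkn1a and Zfp148, beside 3.7% of all genes. The 9 genes held 25 cores in all, of which 3 were 8mers, 7 were 7mer-m8 sites, 5 were 7mer-A1 sites and 10 were the 6mer alone. Every gene had a 7mer to at least 1 of the 3 seeds that begin AAGUGC, beside 32.8% of all genes. The genes were listed as known or proposed targets of this family, so these shares describe the list and are no test of it.

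The strongest match in each gene is printed in a window of 30 bases, written 5′ to 3′ in the sense of the mRNA with the site in capitals, since these are the letters through which the microRNAs could pair.
Rbl2 8mer, chr8:91123815-91123844, plus strand: tgtatttttcaataaAGCACTTAtaaatta
Cdkn1a 8mer, chr17:29100489-29100518, plus strand: gtgggtgtcaaAGCACTTAgtgggtctgac
Zfp148 8mer, chr16:33498235-33498264, plus strand: agttgacatagAGCACTTAgaattaatctg
Rbl1 7mer-m8, chr2:157147466-157147495, minus strand: tgcctgatcaaAGCACTTttggattgttct
Arid4a 7mer-m8, chr12:71098114-71098143, plus strand: aattttgtggaAGCACTTgctatgtagaac
Arid4b 7mer-m8, chr13:14197739-14197768, plus strand: ggacttgctagAGCACTTtgcacttaatgg
Casp2 7mer-m8, chr6:42281547-42281576, plus strand: tataacctagaAGCACTTgtctctgctctt
Ei24 7mer-m8, chr9:36779877-36779906, minus strand: gctgtttttttAGCACTTgccagctcctgt
Rb1 6mer, chr14:73196350-73196379, minus strand: tacaacccaagtGCACTTtttaatgtttct
The 8mer of Rbl2 began 1384 bases after the stop codon and ended 7 bases before the annotated end of the transcript. The letters AATAAA, those of a polyadenylation signal, end on its first base. Whether the site is present and usable in the mature mRNA was not tested. Arid4b carried 2 sites 8 bases apart near its stop codon, at 17 and 25 bases from it, and both are in its window, the second as gcactta in lower case. Rbl1 also had its only site close to the stop codon, at 22 bases. Rb1 was the 1 gene with no 8mer or 7mer for AAGUGCU, and its core is a 7mer to the seed AAGUGCA. The 2 further cores of Rbl2, both to the seed AAGUGCC, are printed because they are the only other matches in the gene that moved most.
Rbl2 6mer, chr8:91123139-91123168, plus strand: gtgtaattggtgGCACTTtatggctgtaag
Rbl2 6mer, chr8:91123200-91123229, plus strand: atatttatgatgGCACTTtctatggtgtga
Both 6mer cores of Rbl2 and the only cores of Rb1 and Rbl1 also match AAAGUGC, the seed of miR-17-5p and miR-20a-5p of chromosome 14. Ei24 alone among the 9 genes had no core that matches it. Which microRNA acts on a core was not tested. A match of this kind is a description of the letters and not a measured site.

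**Figure D1:**
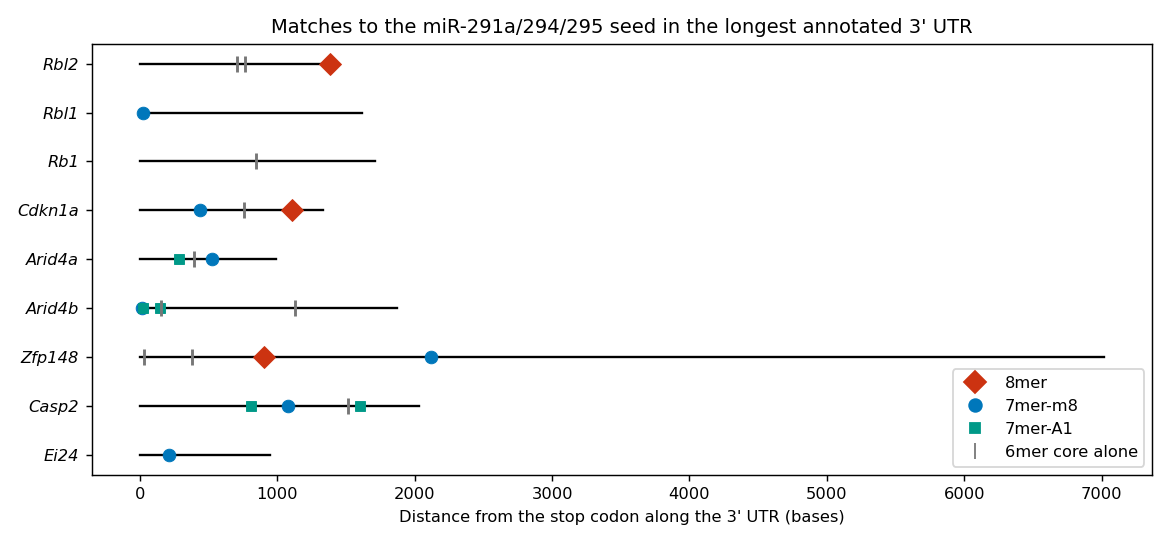
Matches to the seed AAGUGCU along the longest annotated 3' UTR of the 9 genes, as distance from the stop codon in bases; lines span the UTR, diamonds are 8mers, circles and squares are the 7mer-m8 and 7mer-A1 sites, and ticks are the 6mer core alone. Rbl2, Cdkn1a and Zfp148 carry an 8mer, Rb1 carries the 6mer core alone, and the UTR of Zfp148, at 7019 bases, is the longest.

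Levels below are CPM scaled with TMM factors, and gene positions are on GRCm38. Each comparison with WT used the quasi-likelihood test of edgeR fitted to all 10 libraries, and adjusted p-values are Benjamini-Hochberg values over all 10978 genes, with a threshold of 0.05. The 4 comparisons share the same WT libraries. In the Dicer knockout, 4 of the 9 genes rose (Rbl2, Casp2, Arid4a and Zfp148) and 0 fell, where 7.35% of all genes tested were called higher and 3.76% lower. In the Ago1&Ago2 libraries, 1 of the 9 (Arid4a) rose and 0 fell, where 1.98% of all genes were called higher and 0.902% lower. Of the members, 5 had an unadjusted p under 0.05 there, as had 2163 of all 10978 genes. DESeq2 called 3 (Rbl2, Arid4a and Zfp148), among 932 genes in all, and limma-voom called 2, among 942. In the Drosha knockout edgeR called 0 of the 9, where 2.48% of all genes were called higher and 0.966% lower. There 3 members had an unadjusted p under 0.05, as had 2110 of all 10978 genes. DESeq2 called the same 3 (Rbl2, Arid4a and Zfp148), among 972 genes in all, and limma-voom called 0, with 111 genes in all. In the Dgcr8-labelled libraries edgeR called 0 of the 9, where 0.0547% of all genes were called higher and 0.0182% lower. There 1 member had an unadjusted p under 0.05, as had 1077 of all genes. DESeq2 and limma-voom called 0 members there, with 160 and 15 genes called in all. For the mean of the 4 groups labelled knockout against WT, 3 of the 9 rose (Rbl2, Arid4a and Zfp148), where 3.81% of all genes were called higher and 3.26% lower, and the count stayed at 3 when the Dgcr8-labelled libraries were left out of that mean.

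The median log2 fold change of the 9 genes was 1.435 in the Dicer knockout, 0.863 in Ago1&Ago2, 0.617 in Drosha and 0.228 in the Dgcr8-labelled libraries, where the medians of all genes were -0.003, 0.04, -0.01 and 0.02. In the Dicer knockout both libraries lay above both WT libraries for 8 of the 9 genes, beside 32.7% of all genes. The same held for 5 of 9 in Drosha (25.9% of all genes), 5 of 9 in Ago1&Ago2 (27.2%) and 4 of 9 in the Dgcr8-labelled libraries (22.0%). No member had both libraries of a knockout below both WT libraries, as 22.9%, 27.9%, 34.6% and 26.1% of all genes had in the Dgcr8-labelled, Drosha, Dicer and Ago1&Ago2 groups. For Rbl2 and Arid4a all 8 libraries labelled knockout lay above both WT libraries, as for 8.15% of all genes.

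**Figure D2:**
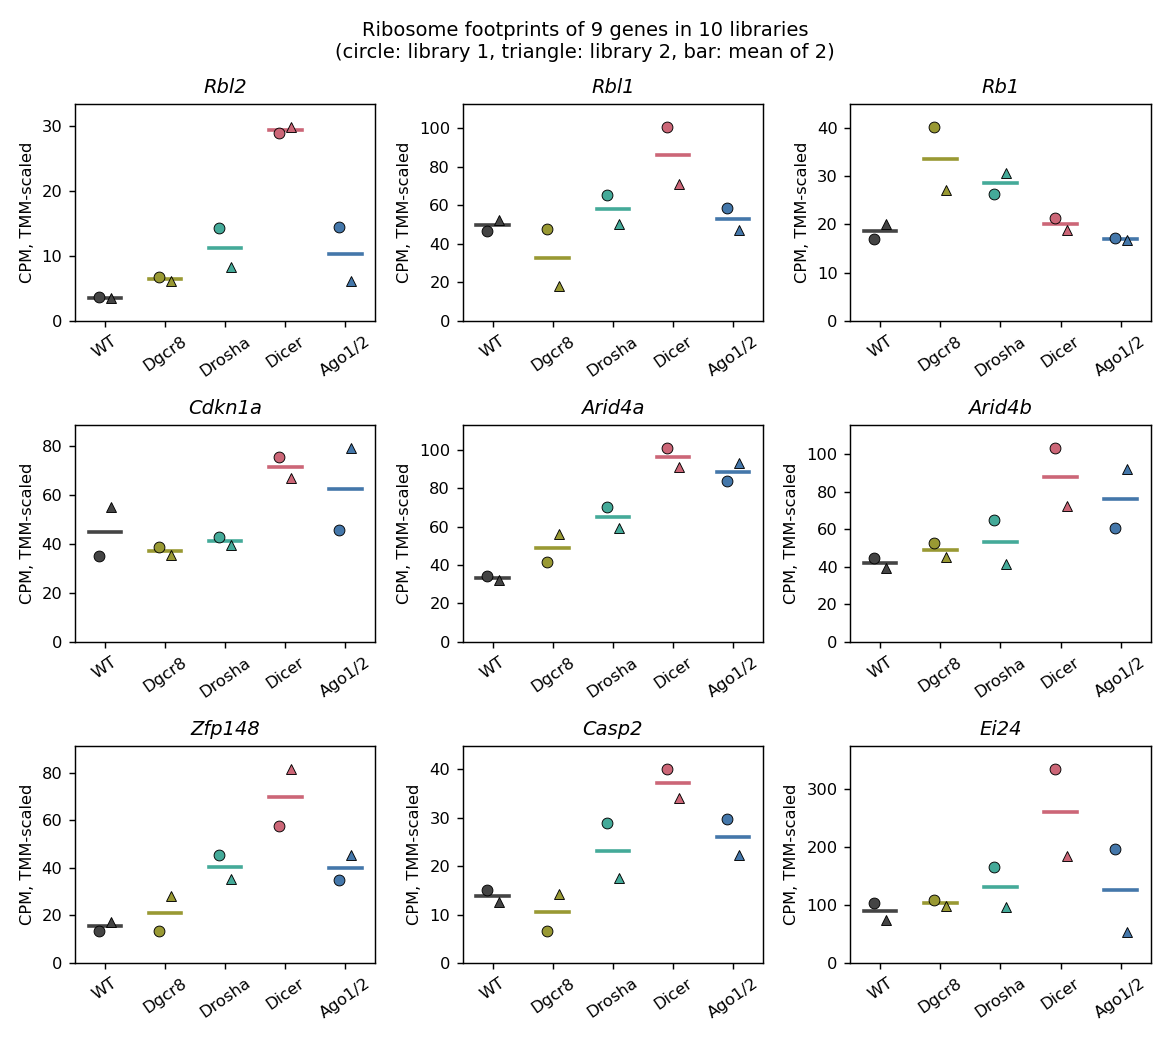
Footprint level (CPM, TMM-scaled, linear axes from 0) of the 9 genes in each library, with circles for library 1, triangles for library 2 and a bar at the mean of the 2. In Rbl2 and Arid4a all 8 libraries labelled knockout lie above both WT libraries, and the mean of the Dicer libraries is the highest of the 5 groups for every gene except Rb1.

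Rbl2 encodes a pocket protein that acts mainly in resting and G1 cells, where it joins E2F4 or E2F5 to silence cell-cycle genes. The gene (ENSMUSG00000031666) spans chr8:91070057-91123844 on the plus strand. Its footprints stood at 3.69 and 3.485 CPM in WT, from 40 and 84 reads. They were at 6.69 and 6.18 CPM in the Dgcr8-labelled libraries, 14.2 and 8.30 in Drosha, 14.4 and 6.10 in Ago1&Ago2, and 28.9 and 29.8 in Dicer. Every library labelled knockout was therefore above WT, and the Dicer libraries were at about the same level and apart from all others. The Drosha values rest on 27 and 19 reads, the Dicer values on 146 and 54. Rbl2 rose 8.17-fold in the Dicer knockout (log2 3.03 ± 0.50 SE, adjusted p = 0.00424) and ranked 161 by p-value among the 10978 genes. In Drosha it was 3.12-fold above WT (log2 1.64 ± 0.50, adjusted p = 0.1), in Ago1&Ago2 2.85-fold (log2 1.51 ± 0.47, adjusted p = 0.106) and in the Dgcr8-labelled libraries 1.80-fold (log2 0.85 ± 0.47, adjusted p = 0.606), none of which passed the threshold.

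In order, the mean levels of Rbl2 were lowest in WT at 3.59 ± 0.14 CPM (SD, n = 2), then 6.43 ± 0.36 in the Dgcr8-labelled libraries, 10.3 ± 5.9 in Ago1&Ago2, 11.3 ± 4.2 in Drosha and 29.3 ± 0.65 in Dicer. No pair of neighbours in this order passed the test, the largest step being from Drosha to Dicer (log2 1.39 ± 0.50, adjusted p = 0.527). Steps further apart did: Dicer stood above WT and above the Dgcr8-labelled libraries. Without the second WT library the Dicer call was lost (adjusted p = 0.0674) at a log2 fold change of 2.99, and it held when any of the other 9 libraries was left out. For the mean of the 4 groups labelled knockout Rbl2 rose by 1.76 ± 0.42 on the log2 scale (adjusted p = 0.0295), a call lost without either WT library or either Dicer library (adjusted p = 0.212, 0.352, 0.0581 and 0.0566). Exons of Rbl2 overlap those of Aktip on the opposite strand by 693 bases, and the strand setting of the counts is not given in the sources used here; Aktip itself was at log2 0.24 in Dicer against WT (adjusted p = 0.753).

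Rbl1, the pocket protein most used in cycling cells, showed a smaller difference. The gene (ENSMUSG00000027641) lies at chr2:157145893-157204534, minus strand. It was at 46.8 and 52.4 CPM in WT, 47.4 and 18.3 in the Dgcr8-labelled libraries, 65.4 and 50.2 in Drosha, 58.4 and 47.1 in Ago1&Ago2, and 100.5 and 71.2 in Dicer. Only the Dicer libraries lay clear of WT. Against WT its log2 difference was 0.80 ± 0.40 in Dicer (adjusted p = 0.225) and -0.57 ± 0.40 in the Dgcr8-labelled libraries (adjusted p = 0.696). Rbl1 was not called by edgeR in any of the 11 comparisons. DESeq2 called it higher in Dicer than in the Dgcr8-labelled libraries (log2 1.38, adjusted p = 0.0202), where edgeR gave log2 1.37 ± 0.40 (adjusted p = 0.0904).

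Rb1, which encodes the retinoblastoma protein itself, had another order of levels. It lies at chr14:73183673-73325822, minus strand (ENSMUSG00000022105). Footprints were at 17.0 and 20.2 CPM in WT, 21.4 and 18.8 in Dicer, and 17.3 and 16.7 in Ago1&Ago2, which overlap. They were at 40.2 and 27.1 CPM in the Dgcr8-labelled libraries and at 26.4 and 30.6 in Drosha, above WT in each. The log2 difference was 0.86 ± 0.31 in the Dgcr8-labelled libraries (unadjusted p = 0.0171, adjusted p = 0.381 by edgeR) and 0.12 ± 0.32 in Dicer (adjusted p = 0.857). Rb1 was the member with no 8mer or 7mer for the main seed, though its core is a 7mer to the seed AAGUGCA. It was also the 1 member whose Dicer libraries did not both lie above both WT libraries. Whether these facts are related was not tested. Its exons overlap those of Rcbtb2 and Lpar6 on the opposite strand, by 488 and 408 bases, and in the Dgcr8-labelled libraries these stood at log2 1.53 and 1.18 above WT (adjusted p = 0.273 and 0.496); their part in the Rb1 level was not tested.

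Divided by the length of the coding sequence, the 3 pocket proteins could be compared with each other. On this scale Rbl2 had 1.05 CPM per kilobase in WT, Rb1 6.72 and Rbl1 15.6. Rbl2 made up 4.94% and 4.13% of the summed pocket protein level in the WT libraries, Rbl1 67.0% and 66.4%, and Rb1 28.0% and 29.5%. In the Dicer libraries the share of Rbl2 was 17.8% and 23.1% and that of Rb1 16.2% and 17.9%, so that Rbl2 footprints were as dense as those of Rb1 or denser. The Rbl2 share was 12.2% and 8.33% in Drosha, 14.7% and 7.93% in Ago1&Ago2, and 6.26% and 10.4% in the Dgcr8-labelled libraries, in each of the 8 libraries labelled knockout above both WT values. Rb1 had its highest shares, 46.3% and 56.5%, in the Dgcr8-labelled libraries, where Rbl1 held 47.4% and 33.1%.

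**Figure D3:**
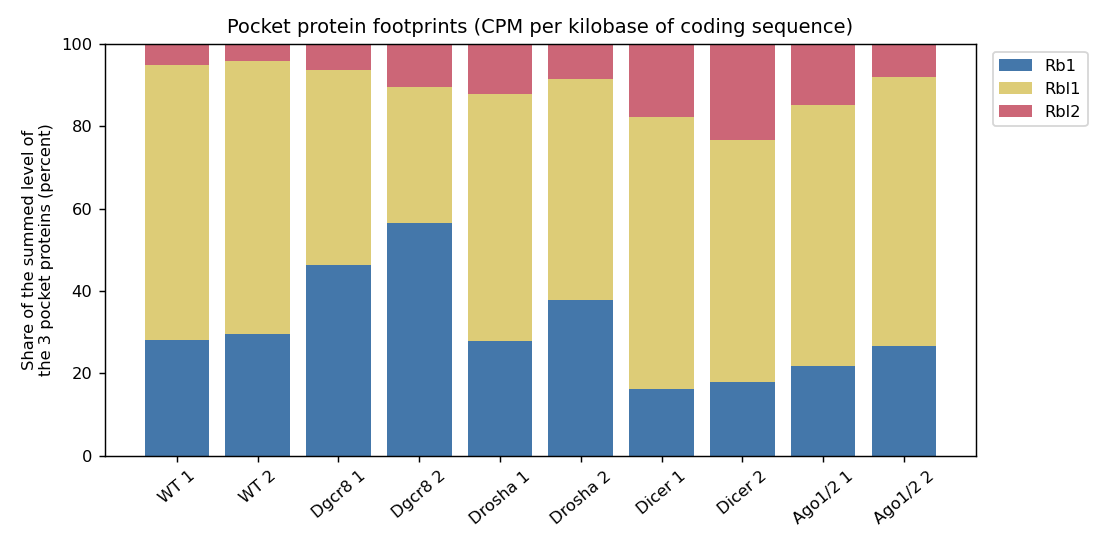
Share in percent of each pocket protein in the summed footprint level of Rb1, Rbl1 and Rbl2 (CPM per kilobase of coding sequence) in each of the 10 libraries. The Rbl2 share is 4.94% and 4.13% in WT and 17.8% and 23.1% in Dicer, and lies above both WT values in all 8 libraries labelled knockout.

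Cdkn1a encodes p21, which binds cyclin and kinase complexes and stops the cell cycle, and is a classical target of p53. It lies at chr17:29090976-29100727, plus strand (ENSMUSG00000023067), and had a mean of 94.0 CPM per kilobase in WT (73.1 and 115 in the 2 libraries), a range that overlapped that of Ei24 (68.6 and 96.6) and lay above those of the other 7 genes. It was at 34.9 and 54.8 CPM in WT, and this spread covered the Dgcr8-labelled libraries at 38.7 and 35.5 and the Drosha libraries at 42.7 and 39.3. The Dicer libraries, at 75.5 and 66.8 CPM, and 1 of the 2 Ago1&Ago2 libraries, at 45.8 and 79.1, were above WT. The log2 difference was 0.67 ± 0.33 in Dicer (adjusted p = 0.222) and -0.13 ± 0.34 in Drosha (adjusted p = 0.876), and Cdkn1a was not called by edgeR or DESeq2 in any comparison. It carries both an 8mer and a 7mer-m8 site.

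Arid4a, also known as retinoblastoma binding protein 1, brings the Sin3 histone deacetylase complex to pocket proteins. The gene (ENSMUSG00000048118) lies at chr12:71015990-71098592, plus strand. Its footprints were at 34.3 and 32.4 CPM in WT, 41.6 and 56.2 in the Dgcr8-labelled libraries, 70.2 and 59.4 in Drosha, 83.5 and 92.9 in Ago1&Ago2, and 100.9 and 91.0 in Dicer. No library labelled knockout overlapped WT, and the Dicer and Ago1&Ago2 libraries overlapped each other. Arid4a rose 2.88-fold in Dicer (log2 1.53 ± 0.28, adjusted p = 0.00608) and 2.64-fold in Ago1&Ago2 (log2 1.40 ± 0.27, adjusted p = 0.0212), and it had the smallest adjusted p of the members in the latter. In Drosha it was at log2 0.96 ± 0.28 (adjusted p = 0.0838) and in the Dgcr8-labelled libraries at 0.55 ± 0.27 (adjusted p = 0.537). The Dicer call was lost without either WT library or without the first Dicer library (adjusted p = 0.0652, 0.096 and 0.0665), and the Ago1&Ago2 call without either WT library or the second Ago1&Ago2 library (adjusted p = 0.15, 0.287 and 0.0579). In the mean of the 4 groups labelled knockout it rose by 1.11 ± 0.23 (adjusted p = 0.0167), a call lost without either WT library (adjusted p = 0.18 and 0.3).

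Arid4b, the paralog of Arid4a in the same complex, did not pass the threshold. It lies at chr13:14063232-14199603, plus strand (ENSMUSG00000039219). It was at 44.5 and 39.4 CPM in WT, 52.8 and 45.2 in the Dgcr8-labelled libraries, 64.9 and 41.5 in Drosha, 60.7 and 91.7 in Ago1&Ago2, and 103.2 and 72.3 in Dicer. Every library labelled knockout but the second of Drosha was above both WT libraries. The difference was nearest to a call in Dicer (log2 1.07 ± 0.33, adjusted p = 0.0575), where DESeq2 gave an adjusted p of 0.0183, and was 0.86 ± 0.33 in Ago1&Ago2 (adjusted p = 0.17). It shares 257 exon bases with Ggps1 on the opposite strand, which was at log2 0.16 in Dicer (adjusted p = 0.896).

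Zfp148 encodes a zinc finger protein that binds GC-rich promoters and can act on Cdkn1a. It lies at chr16:33380836-33504363, plus strand (ENSMUSG00000022811). Its level was 13.3 and 17.3 CPM in WT, 13.4 and 28.3 in the Dgcr8-labelled libraries, 45.4 and 35.4 in Drosha, 34.95 and 45.2 in Ago1&Ago2, and 57.7 and 81.6 in Dicer. The first Dgcr8-labelled library fell within the WT range, and the other 7 libraries labelled knockout were above it. Zfp148 rose 4.51-fold in Dicer (log2 2.17 ± 0.39, adjusted p = 0.00612) and in the mean of the 4 groups labelled knockout (log2 1.34 ± 0.33, adjusted p = 0.0322). In Drosha and Ago1&Ago2 it was 2.63-fold and 2.61-fold above WT, with adjusted p = 0.0778 and 0.0761. Its Dicer call was lost without either WT library (adjusted p = 0.0707 and 0.0601), and the call in the mean without either WT library or the second Dicer library (adjusted p = 0.296, 0.265 and 0.0614).

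Casp2 encodes an initiator caspase that is activated by the PIDD complex. It lies at chr6:42264985-42282508, plus strand (ENSMUSG00000029863). Footprints were at 15.0 and 12.6 CPM in WT, 6.51 and 14.3 in the Dgcr8-labelled libraries, 29.0 and 17.5 in Drosha, 29.9 and 22.4 in Ago1&Ago2, and 40.1 and 34.2 in Dicer. The Dgcr8-labelled libraries reached down below WT, and the other 6 libraries labelled knockout were all above it. Casp2 rose 2.70-fold in Dicer (log2 1.435 ± 0.42, adjusted p = 0.0481), just inside the threshold. This call was lost without either WT library or either Dicer library (adjusted p = 0.171, 0.288, 0.241 and 0.119). In Ago1&Ago2 the difference was 0.92 ± 0.41 (adjusted p = 0.237) and in Drosha 0.75 ± 0.43 (adjusted p = 0.371).

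Ei24 encodes a membrane protein of the endoplasmic reticulum that is induced by p53 and takes part in autophagy. It lies at chr9:36779159-36797393, minus strand (ENSMUSG00000062762). It was at 103.7 and 73.7 CPM in WT, 107.7 and 98.2 in the Dgcr8-labelled libraries, 165.1 and 97.0 in Drosha, 195.9 and 53.8 in Ago1&Ago2, and 334.4 and 184.8 in Dicer. Its Ago1&Ago2 libraries lay on either side of the WT pair, and the Dicer libraries were far apart though both above WT. The Dicer difference was 1.55 ± 0.52 (adjusted p = 0.0776, with DESeq2 0.0176), and its SE was the largest of the 9 genes in that comparison.

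**Figure D4:**
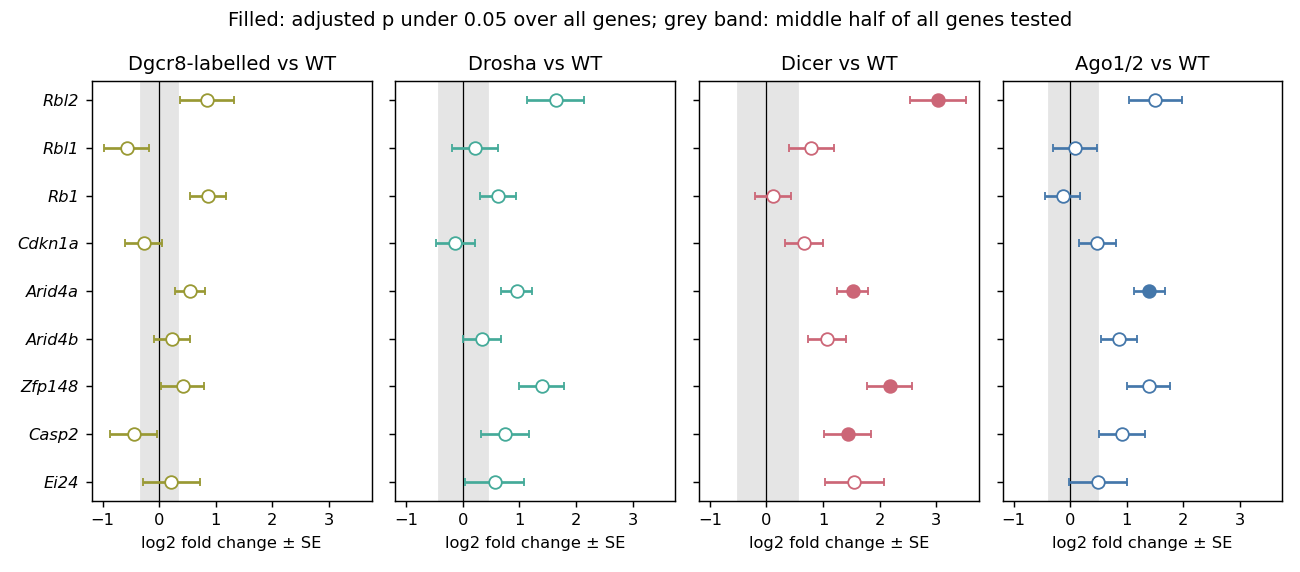
Log2 fold change against WT with its SE for the 9 genes in the Dgcr8-labelled, Drosha, Dicer and Ago1&Ago2 libraries; filled points have an adjusted p under 0.05 over all genes in edgeR, and the grey band holds the middle 50% of all genes tested. The filled points are Rbl2, Arid4a, Zfp148 and Casp2 in Dicer and Arid4a in Ago1&Ago2.

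Direct tests between knockouts placed the Dgcr8-labelled libraries apart from Dicer for these genes. Against the Dgcr8-labelled libraries, 3 of the 9 were higher in Dicer, and 0 lower, where 3.19% of all genes were called higher and 0.884% lower. Rbl2 was higher by 2.18 ± 0.48 on the log2 scale (adjusted p = 0.0313), Casp2 by 1.89 ± 0.43 (adjusted p = 0.0343) and Zfp148 by 1.76 ± 0.39 (adjusted p = 0.0313). All 9 members had an unadjusted p under 0.05 in this comparison, as had 2088 of all 10978 genes. Rb1 was the 1 member on the other side, lower in Dicer by log2 -0.75 ± 0.32 (adjusted p = 0.236). The 3 calls were lost without either WT library, without the first Dgcr8-labelled library and without either Dicer library, and that of Rbl2 also without the second Dgcr8-labelled library; the adjusted p then lay between 0.0523 and 0.279, and the log2 differences between 1.29 and 2.245 for the 3 genes.

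In the other 5 comparisons between knockouts edgeR called 0 of the 9, and DESeq2 and limma-voom called 0 unless named here. Drosha against the Dgcr8-labelled libraries had 2 members at an unadjusted p under 0.05, as had 1258 of all 10978 genes. EdgeR called 0.501% of all genes there. Ago1&Ago2 against the Dgcr8-labelled libraries had 5 such members, beside 1369 of all genes. There limma-voom called 1 member, among 436 genes in all, and edgeR called 0.483% of all genes. Dicer against Drosha had 2 such members, beside 829 of all genes, with 0.00911% called by edgeR. Ago1&Ago2 against Drosha had 1, beside 1015 of all genes, with 0.0455% called by edgeR. Ago1&Ago2 against Dicer had 1, beside 1345 of all genes. This was Rbl2, at log2 -1.52 ± 0.47 (edgeR adjusted p = 0.189). DESeq2 called Rbl2 (adjusted p = 0.0494), among 377 genes in all, and edgeR called 0.547% of all genes. All 9 members were lower in Ago1&Ago2 than in Dicer in value, with a median of -0.52 beside 0.03 for all genes, but the sign turned when 1 library was left out for Cdkn1a (-0.639 to 0.149) and Arid4b (-0.539 to 0.091).

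Across the 10 libraries the members' log2 levels were related to different degrees, described here without a test since the libraries share groups and differ in depth. The closest pair was Arid4a and Zfp148 (Pearson r = 0.914), followed by Casp2 and Zfp148 (r = 0.866), and Rbl2 was related to Ei24 at r = 0.843 and to Zfp148 at r = 0.833. Rb1 was the exception, with r between -0.57 and -0.03 to each of the other 8. Of 6850 genes with a mean of at least 20 CPM, those whose levels were most like Rbl2 over the 10 libraries were Bmp2k (r = 0.978), Dock2 (0.968), Pdgfc (0.961), Pdzd2 (0.955) and Rims2 (0.954). Bmp2k, for example, went from a mean of 9.64 CPM in WT to 38.1 in Dicer. For Cdkn1a they were Ndrg1 (r = 0.931), Pbk (0.903), Rapgef6 (0.846), Rps6ka5 (0.838) and Fam129a (0.833).

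The size of the change did not follow the type of site among the members in any plain order. In the Dicer knockout the 3 genes with an 8mer were at log2 3.03 (Rbl2), 2.17 (Zfp148) and 0.67 (Cdkn1a). Genes with 7mer sites alone ranged from 0.80 (Rbl1) to 1.55 (Ei24), and Rb1, with the 6mer alone, was at 0.12. Over the whole table the median log2 fold change in Dicer was -0.05 for 8624 genes without an 8mer or 7mer, 0.17 for 1900 genes with 7mers alone and 0.33 for 404 genes with an 8mer. Rbl2 and Zfp148 thus lay beyond the upper quartile of the 8mer genes, which was 1.05, and Cdkn1a lay within it. The same 3 medians were -0.03, 0.10 and 0.21 in Drosha, 0.02, 0.10 and 0.26 in Ago1&Ago2, and 0.01, 0.04 and 0.07 in the Dgcr8-labelled libraries.

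**Figure D5:**
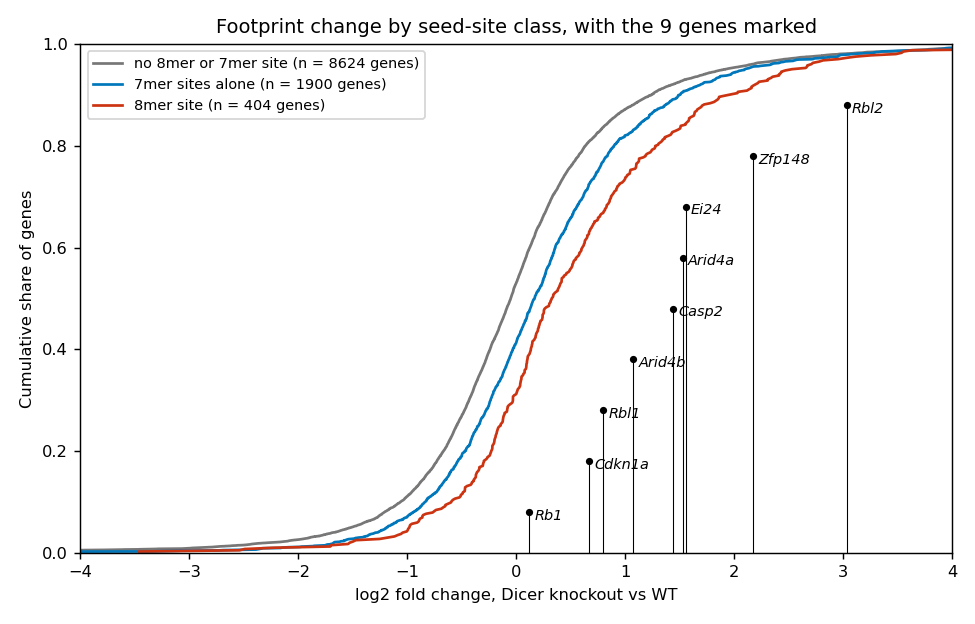
Cumulative share of genes by log2 fold change in Dicer against WT, for genes without an 8mer or 7mer for AAGUGCU (8624), with 7mers alone (1900) and with an 8mer (404); stems mark the 9 genes at their log2 fold change, and the height of a stem carries no value. The curves are shifted to the right in that order, and Rb1 at 0.12 and Rbl2 at 3.03 are the lowest and highest of the 9.

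The rest of the pathway is given by lists, each with its number called by edgeR and its median log2 fold change, to be read beside the shares of all genes called above. In the Dgcr8-labelled, Drosha, Dicer and Ago1&Ago2 libraries, 1077, 2110, 2965 and 2163 of all 10978 genes had an unadjusted p under 0.05. In the same order DESeq2 called 160, 972, 1874 and 932 genes in all, and limma-voom 15, 111, 1045 and 942. The list counts of each kind are to be read beside these. E2F factors and the partners that form the DREAM repressor with pocket proteins showed 0 of 16 called in any of the 4 comparisons, with 0, 2, 4 and 2 at an unadjusted p under 0.05 in the Dgcr8-labelled, Drosha, Dicer and Ago1&Ago2 libraries. DESeq2 called 1 of them, in Drosha, and limma-voom 0. Their medians ran from -0.27 to -0.12. The repressor E2f8 was nearest to a call, at log2 -1.89 ± 0.48 in Drosha (adjusted p = 0.0545).

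Among cyclins, kinases and inhibitors of the G1 to S step, 17 of 19 were tested. Cdkn2a, whose locus encodes inhibitors that act on the kinases and on Mdm2, had a mean of 6.76 CPM in WT. It rose to 61.2 CPM in the Drosha knockout (log2 3.18 ± 0.41, adjusted p = 0.00673) and to 47.4 CPM in the Dicer knockout (log2 2.81 ± 0.40, adjusted p = 0.00261). Ccne2, the cyclin E2 that drives S phase entry, rose in Dicer from 13.3 to 41.9 CPM (log2 1.65 ± 0.39, adjusted p = 0.0215). Ccnd1 was at log2 1.62 ± 0.50 in Dicer (adjusted p = 0.0576). These were the only calls of the list in the 4 comparisons with WT, and its medians lay between -0.07 and 0.19. The Dgcr8-labelled and Ago1&Ago2 libraries, with 0 edgeR calls, had 2 members each at an unadjusted p under 0.05, and DESeq2 and limma-voom each called 1 in Ago1&Ago2 alone. The Drosha call of Cdkn2a was lost without either WT library, its Dicer call held without any 1 library, and that of Ccne2 was lost without either WT or either Dicer library.

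S phase genes under E2F control were all tested, 19 of 19. In Dicer 1 rose, Ccne2, and 1 fell, Mcm6, a subunit of the replicative helicase (log2 -1.18 ± 0.30, adjusted p = 0.0277, from 1120 to 495 CPM). Elsewhere edgeR called 0, with 0, 4 and 3 at an unadjusted p under 0.05 in the Dgcr8-labelled, Drosha and Ago1&Ago2 libraries, 2 called by DESeq2 in Drosha and 0 by limma-voom. The median of the list was -0.46 in Dicer, with 4 of 19 above 0, and 0.06, -0.17 and -0.26 in the Dgcr8-labelled, Drosha and Ago1&Ago2 libraries. The Mcm6 call was lost without either WT or either Dicer library.

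Of the DNA methyltransferases and Uhrf1, 5 of 5 tested, the cofactor Dnmt3l fell in Dicer from 485 to 206 CPM (log2 -1.24 ± 0.31, adjusted p = 0.0269), a call lost without either WT or either Dicer library, and no other member was called. The other groups had 2, 0 and 1 members at an unadjusted p under 0.05 in the Dgcr8-labelled, Drosha and Ago1&Ago2 libraries, and DESeq2 and limma-voom each called 1 in Ago1&Ago2. The medians were 0.68, 0.27, 0.23 and -0.001 in the Dgcr8-labelled, Drosha, Dicer and Ago1&Ago2 libraries. Dnmt3a and Dnmt3b, the enzymes of new methylation, were at log2 0.03 and 0.56 in Dicer (adjusted p = 0.964 and 0.369). The Sin3 partners of Arid4a and Arid4b showed 0 of 15 called in the 4 comparisons, with 0, 2, 3 and 2 at an unadjusted p under 0.05 in the order above, 1 called by DESeq2 in Dicer and 0 by limma-voom. The medians of the list ran from -0.05 to 0.08. Sap30 was nearest, at log2 -1.07 ± 0.32 in Dicer (adjusted p = 0.0522).

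The Hippo pathway, in which Lats2 acts as a kinase that restrains Yap1, had 16 of 18 listed genes tested. The upstream activator Nf2 (log2 2.06 ± 0.45, adjusted p = 0.0141) and the kinase cofactor Mob1b (log2 1.38 ± 0.40, adjusted p = 0.0456) rose in Dicer. The Yap1 target Cyr61 fell in Ago1&Ago2 from 86.9 to 19.8 CPM (log2 -2.14 ± 0.43, adjusted p = 0.0254). In the Dgcr8-labelled and Drosha libraries edgeR called 0, with 2 and 4 at an unadjusted p under 0.05 2 called by DESeq2 in Drosha and 0 by limma-voom. The medians were -0.04, 0.29, 0.27 and -0.05 in the Dgcr8-labelled, Drosha, Dicer and Ago1&Ago2 libraries. All 3 calls were lost without either WT library, Nf2 and Mob1b also without the first Dicer library, Mob1b without the second, and Cyr61 without the second Ago1&Ago2 library.

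Of p53 and its targets, to which Cdkn1a and Ei24 also belong, 18 of 19 were tested and 2 fell in Ago1&Ago2: Phlda3 (log2 -1.77 ± 0.31, adjusted p = 0.0169), an inhibitor of Akt, and Plk2 (log2 -1.93 ± 0.45, adjusted p = 0.0446), a stress-induced kinase. In Dicer edgeR called 0 of 18, with 5 at an unadjusted p under 0.05 3 called by DESeq2 and 1 by limma-voom, and the median was 0.01, beside 0.18, 0.10 and -0.23 in the Dgcr8-labelled, Drosha and Ago1&Ago2 libraries. In the Dgcr8-labelled and Drosha libraries edgeR also called 0, with 1 member each at an unadjusted p under 0.05, 1 each called by DESeq2 and 0 by limma-voom. Both calls were lost without either WT library or the second Ago1&Ago2 library, and Plk2 also without either Dicer library.

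Of the caspases and genes of the intrinsic death pathway other than Casp2, 13 of 15 were tested. Bid, which carries the caspase signal to mitochondria, fell in Dicer (log2 -1.60 ± 0.31, adjusted p = 0.00903) and in Ago1&Ago2 (log2 -1.32 ± 0.30, adjusted p = 0.0394). The survival genes Bcl2l1 (log2 3.31 ± 0.83, adjusted p = 0.0268) and Xiap (log2 1.20 ± 0.33, adjusted p = 0.0377) rose in Dicer. In the Dgcr8-labelled and Drosha libraries edgeR called 0, with 2 and 4 at an unadjusted p under 0.05, 2 called by DESeq2 in Drosha and 0 by limma-voom. The medians of the list lay between 0.15 and 0.33 in the 4 comparisons. The calls in Dicer were lost without either WT library or the first Dicer library, and those of Bid and Xiap also without the second. That of Bid in Ago1&Ago2 was lost without any 1 of the WT, Dicer or Ago1&Ago2 libraries.

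Of 16 further genes known as targets of these microRNA families, 14 were tested. Lefty1, an inhibitor of Nodal, rose from a WT mean of 9.02 CPM to 341 in Dicer (log2 5.28 ± 1.22, adjusted p = 0.0189) and 490 in Ago1&Ago2 (log2 5.79 ± 1.25, adjusted p = 0.033). Cfl2, an actin-severing cofilin, rose in Dicer (log2 1.14 ± 0.32, adjusted p = 0.0431). The list's median was 0.45 in Dicer, 0.40 in Drosha, -0.07 in Ago1&Ago2 and -0.25 in the Dgcr8-labelled libraries, each below that of the 9 cell-cycle genes. In Drosha edgeR called 0 of 14, with 4 at an unadjusted p under 0.05 and 2 called by DESeq2 and 0 by limma-voom. In the Dgcr8-labelled libraries edgeR called 0, with 1 at an unadjusted p under 0.05 and 0 called by either other tool. The Dicer and Ago1&Ago2 calls of Lefty1 were lost without either WT library or the first library of that knockout, and that of Cfl2 without any 1 of the WT, Drosha or Dicer libraries. Dkk1, an inhibitor of Wnt signalling, had a mean of 18.1 CPM in WT and 0.198 and 0.389 in Dicer and Ago1&Ago2 (adjusted p = 0.0646 and 0.0728). Both Drosha libraries had 0 reads of it, at a depth where 3 reads make 1.34 to 1.62 CPM. For the mean of the 4 groups labelled knockout against WT, Lefty1 rose (adjusted p = 0.0347) and Dkk1 fell (adjusted p = 0.0169), and both calls were lost without either WT library.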

How the data were processed

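The deposited table holds the read counts per gene that the authors obtained from ribosome footprint libraries of 10 samples. Per the submitters' processing notes, reads were handled with Trimmomatic and Bowtie2 on the builds mm10/GRCm38 and dm6/BDGP6. The counting tool, annotation and strand setting are not given in the sources used here. Counts were tested with edgeR 4.0.16 in R 4.3.3, by the quasi-likelihood F test with TMM factors over all 10 libraries and 5 groups. Genes with low counts were filtered (33 of 11011 removed), and Benjamini-Hochberg adjustment ran over the 10978 genes left, with a threshold of 0.05. The SE is the log2 fold change divided by the square root of F. Log2 CPM used a prior count of 2. Total counts of 1754710 to 80850950 make 3 reads worth 0.0371 to 1.71 CPM. Alternatives were DESeq2 1.42.0, limma-voom (limma 3.58.1), other normalizations, no filter, the compared groups alone, a replicate block and each library left out. Sites were searched in GENCODE M21 transcripts, with microRNAs from RefSeq. Members and lists were chosen with earlier results of these data known. Genes named are all members, at most 3 of each list by smallest adjusted p against WT, the targeted genes, and the 5 most alike to Rbl2 and to Cdkn1a.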

Additional observations from a re-analysis of the deposited data

Results flagged for a closer look

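The log2 differences of 3 genes from WT were larger in the Dicer knockout than in the Dgcr8-labelled libraries by a direct test between the groups (edgeR's quasi-likelihood test, Benjamini-Hochberg adjusted). Rbl2 differed by 2.181 (adjusted p = 0.0313), Casp2 by 1.889 (adjusted p = 0.0343) and Zfp148 by 1.763 (adjusted p = 0.0313). Without the first Dgcr8-labelled library the adjusted p of the 3 genes became 0.132, 0.164 and 0.148. Footprints of Dgcr8 itself rose in those libraries, as in the other groups labelled knockout, and the part of this in the differences was not tested.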

How the results depend on the processing

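The number of the 9 genes called was the same with size factors of DESeq2 in edgeR, with total counts as library sizes and without the filter on low counts, in each of the 11 comparisons. DESeq2 called 6 in Dicer, 3 in Drosha, 3 in Ago1&Ago2, 5 in Dicer against the Dgcr8-labelled libraries and 1 in Ago1&Ago2 against Dicer. Limma-voom called 5 in Dicer, 4 in Dicer against the Dgcr8-labelled libraries, 2 in Ago1&Ago2 and 1 in Ago1&Ago2 against the Dgcr8-labelled libraries. A fit to the compared groups alone called 1 in Drosha, 7 in Dicer, 2 in Ago1&Ago2 and 1 in Dicer against the Dgcr8-labelled libraries. The replicate numbers of the titles were not taken to pair the samples, since not every correlation between deviations of same-numbered libraries was over 0.1. These correlations ran from 0.061 to 0.287 over 10 pairs of groups, all above 0, and 9 were over 0.1. In the deposited headers the Ago1&Ago2 libraries titled 1 and 2 are numbered 2 and 3. Their title numbers may therefore not match those of the other groups, here and in the replicate block. With the replicate block 1 was called in Drosha, 6 in Dicer, 2 in Ago1&Ago2 and 5 in Dicer against the Dgcr8-labelled libraries. Leaving out 1 library at a time gave 0 to 1 in Drosha, 0 to 6 in Dicer, 0 to 2 in Ago1&Ago2, 0 to 3 in the mean of 4 and 0 to 3 in Dicer against the Dgcr8-labelled libraries, and 0 were called in Dicer against WT without the second WT library. With 8mers alone 3 of the 9 genes had a site.

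In the 5 comparisons with WT, the direction of 12 differences of uncalled genes was not kept when 1 library was left out. These ranged from -0.546 to 0.091 (Cdkn1a), -1.083 to 0.057 (Casp2), -0.198 to 0.881 (Zfp148) and -0.01 to 0.498 (Ei24) in the Dgcr8-labelled libraries, from -0.425 to 0.235 (Cdkn1a) and -0.015 to 0.636 (Arid4b) in Drosha, and from -0.016 to 0.248 (Rb1) in Dicer. In Ago1&Ago2 they ranged from -0.235 to 0.002 (Rb1), -0.076 to 0.233 (Rbl1) and -0.719 to 1.144 (Ei24), and in the mean of 4 from -0.084 to 0.258 (Rbl1) and -0.099 to 0.55 (Cdkn1a). In the 6 comparisons between knockouts it was not kept for 12 more. Against the Dgcr8-labelled libraries these ranged from -0.494 to 0.074 (Rb1), -0.243 to 0.388 (Arid4b) and -0.087 to 0.668 (Ei24) in Drosha, and from -0.082 to 1.158 (Rbl2) and -0.936 to 0.927 (Ei24) in Ago1&Ago2. For Ago1&Ago2 against Drosha they ranged from -0.874 to 0.367 (Rbl2), -0.306 to 0.07 (Rbl1), -0.148 to 0.579 (Casp2), -0.206 to 0.182 (Zfp148) and -1.281 to 0.582 (Ei24), and for Ago1&Ago2 against Dicer from -0.639 to 0.149 (Cdkn1a) and -0.539 to 0.091 (Arid4b). Zfp148 in Ago1&Ago2 against Drosha also turned to 0.002 with limma-voom and 0.012 in the compared groups alone.

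Over all genes the count called in Dicer against WT was 1220, and 1874 with DESeq2, 1045 with limma-voom, 3224 in the compared groups alone, 1877 with the replicate block, 360 without WT library 1 and 139 without WT library 2. The corresponding counts in Drosha were 378, 972, 111, 565, 770, 9 and 1, in Ago1&Ago2 316, 932, 942, 536, 738, 18 and 3, and in the Dgcr8-labelled libraries 8, 160, 15, 0, 14, 2 and 0. The cause of these changes was not tested. The lowest totals, in which 3 reads make 1.71 CPM, limit the precision for Rbl2.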
